A study of Mus musculus with 7 samples.

Results

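Forkhead transcription factors were taken here as genes whose symbol is Fox with a class letter from a to s and a number. Of 32531 gene rows in the files, 42 such rows were taken by their symbol alone. Foxj1 and symbols of antisense transcripts were left out. The tissue was midbrain, taken from adult mice without treatment. Their line, Stard8-TRAP ES2342, is one in which the ribosomal protein Rpl10a, fused to the fluorescent protein EGFP, is expressed under Stard8 regulatory DNA. In the method, translating ribosome affinity purification (TRAP), antibodies against EGFP pull tagged ribosomes with their RNA onto beads. The 3 immunopurified libraries (IP 1, 2 and 4) held the RNA on the beads, and the 4 unbound libraries (unbound 1 to 4) held the RNA that stayed off them. All libraries carried the transgene, so no group without the tag was measured. The sources used here do not give the age in weeks, the sex or the number of animals behind each library. The p-values therefore measure the spread between these libraries, which may be technical.

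Forkhead factors share a winged-helix domain that binds DNA, and some of them can open closed chromatin. The family holds factors of mesenchyme and blood vessels, among them some members of the F, C, D, L, Q and S classes. It also holds the FoxO class, which the insulin pathway keeps out of the nucleus, and factors of neural patterning like Foxa1, Foxa2 and Foxb1. In brain vessels Foxf2 and Foxc1 are known from pericytes and the blood-brain barrier, and Foxq1 from brain endothelium. Foxa1 and Foxa2 maintain midbrain dopaminergic neurons.

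RefSeq promoter windows on GRCm38.p6, from 250 bases before to 50 after a start, were on hand for 28 of the 42 genes, in 33 windows. Of the 8 genes with the greatest rise in IP described next, Foxf2, Foxc1, Foxd1 and Foxl2 had one, and these are printed because the 4 genes moved together. All 4 lie on the plus strand: Foxf2 at chr13:31625566-31625865, Foxc1 at chr13:31806396-31806695, Foxd1 at chr13:98353995-98354294 and Foxl2 at chr9:98955357-98955656. Each is written 5′ to 3′, and capitals mark GGGCGG, bound by SP1 and KLF factors, and CCAAT, read on both strands.
Foxf2: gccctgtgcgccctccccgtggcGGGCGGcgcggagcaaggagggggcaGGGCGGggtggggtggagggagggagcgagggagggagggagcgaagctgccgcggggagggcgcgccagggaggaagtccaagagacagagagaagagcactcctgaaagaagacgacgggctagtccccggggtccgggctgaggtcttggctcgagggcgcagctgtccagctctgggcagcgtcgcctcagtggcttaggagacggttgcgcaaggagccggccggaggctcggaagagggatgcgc
Foxc1: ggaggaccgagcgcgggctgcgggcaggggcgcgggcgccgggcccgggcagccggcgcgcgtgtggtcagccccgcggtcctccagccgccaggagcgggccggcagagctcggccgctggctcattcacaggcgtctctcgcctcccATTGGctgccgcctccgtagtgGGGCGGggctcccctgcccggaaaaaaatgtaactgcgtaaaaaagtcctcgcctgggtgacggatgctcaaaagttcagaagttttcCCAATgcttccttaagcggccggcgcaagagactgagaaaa
Foxd1: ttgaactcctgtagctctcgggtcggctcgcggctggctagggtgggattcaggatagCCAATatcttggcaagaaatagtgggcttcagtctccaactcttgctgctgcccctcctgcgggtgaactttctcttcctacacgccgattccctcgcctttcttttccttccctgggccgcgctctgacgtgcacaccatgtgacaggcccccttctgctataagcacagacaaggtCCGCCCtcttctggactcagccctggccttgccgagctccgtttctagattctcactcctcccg
Foxl2: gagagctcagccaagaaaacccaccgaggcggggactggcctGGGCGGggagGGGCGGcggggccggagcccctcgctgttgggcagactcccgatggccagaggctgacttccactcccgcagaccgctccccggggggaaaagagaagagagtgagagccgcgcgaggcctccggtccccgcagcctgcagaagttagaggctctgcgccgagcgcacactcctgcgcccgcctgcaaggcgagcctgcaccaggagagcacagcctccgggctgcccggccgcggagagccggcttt
GGGCGG stood in all 4 of these windows, in 72.7% of the 33 forkhead windows and in 35.7% of 32851 promoters of the same length. CCAAT stood in the Foxc1 and Foxd1 windows, in 45.5% of the forkhead windows and in 37.4% of all promoters. The forkhead motif GTAAACA was in 3.03% of forkhead windows (1 window, that of Foxa1) and in 3.65% of all promoters. The ETS motif CCGGAAGT was in 0 forkhead windows and in 3.89% of all, and TATAAA in 9.09% and 13.6%. All motifs were read on both strands, none contains another, and a match is a description of the letters. The forkhead windows were richer in G and C, with a median of 62.7% against 52.7%, and held a median of 22 CpG dinucleotides against 7 over all promoters.

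Counts in genes lay between 52052340 and 70861941 in IP and between 53715780 and 76114634 in unbound libraries. Values are CPM, that is counts scaled for depth, on library sizes adjusted by TMM, and 3 counts in 1 library stood for 0.0376 to 0.059 CPM. Stard8 itself measured 227 to 440 CPM in IP and 3.51 to 4.89 CPM in unbound libraries. Neuron markers were lower in IP in 10 of 10 genes, with a summed level of 3400, 3730 and 7670 CPM in IP 1, 2 and 4 against 13000 to 20800 CPM in unbound libraries, although the submitters present the series as a profile of neurons. Endothelial markers were higher in 12 of 12, at 1250 to 1400 against 11 to 19 CPM, and pericyte and smooth muscle markers in 12 of 12, at 3290 to 4680 against 29.7 to 45.3 CPM. Microglia and macrophage markers were higher in 10 of 10 (757 to 820 against 31.8 to 58 CPM). Fibroblast and meningeal markers were higher in 7 of 10, at 232 to 296 against 26.7 to 48.3 CPM. Astrocyte markers were higher in 7 of 10 (2200 to 2920 against 1070 to 1760 CPM). Oligodendrocyte markers were lower in 8 of 8, at 877 to 1640 CPM in IP and 5240 to 7160 CPM in unbound libraries. Among oligodendrocyte precursor markers 5 of 8 were lower and 1 was higher (213 to 272 against 319 to 405 CPM). Of 9 tested ependymal and choroid plexus markers 4 were higher, and their sum ran from 52.4 to 270 CPM in IP, highest in IP 4, and from 21.4 to 46.5 CPM in unbound libraries. The part of these cell types in the forkhead results was not tested. Without a group that lacks the tag, RNA of tagged ribosomes and other RNA on the beads cannot be told apart. Nor can the number of cells of a type and the RNA per cell. IP libraries ran on lanes 2 and 5 and unbound libraries on lanes 1 and 3, so that lane and group cannot be told apart either.

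Of the 42 forkhead genes, 15 were higher and 2 lower in IP, past an adjusted p of 0.05 in edgeR's quasi-likelihood test over all genes, and 10 tested genes did not pass. Over all 17654 genes tested, 39.4% were called, 20.5% as higher and 18.9% as lower. The other 15 forkhead genes fell under the filter on low counts. Foxf1 passed that filter through its IP libraries alone, and Foxl2 and Foxs1 through 3 IP libraries with 1 or 2 unbound ones, so their place among the tested genes was tied to their level in IP. With no filter all 42 were tested, and the counts were again 15 and 2, with a median log2 fold change of 0.44 against -0.24 over 23466 genes. Of those 23466 genes, 3618 were higher and 3244 lower. Every IP library lay above every unbound library in 17 tested forkhead genes and below in 2, against 25.1% and 22.7% of all tested genes. Within index ACAGTG (IP 1 and 2, unbound 1 and 2) 11 of 27 tested forkhead genes were higher and 0 lower, against 2190 and 1650 of 17663 genes. Index GTGAAA held IP 4, unbound 3 and unbound 4, so there the spread of IP has to be taken from unbound libraries. The summed level of the family was 1762, 1803 and 1769 CPM in IP 1, 2 and 4, against 835, 531, 743 and 815 CPM in unbound 1 to 4.

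**Figure D1:**
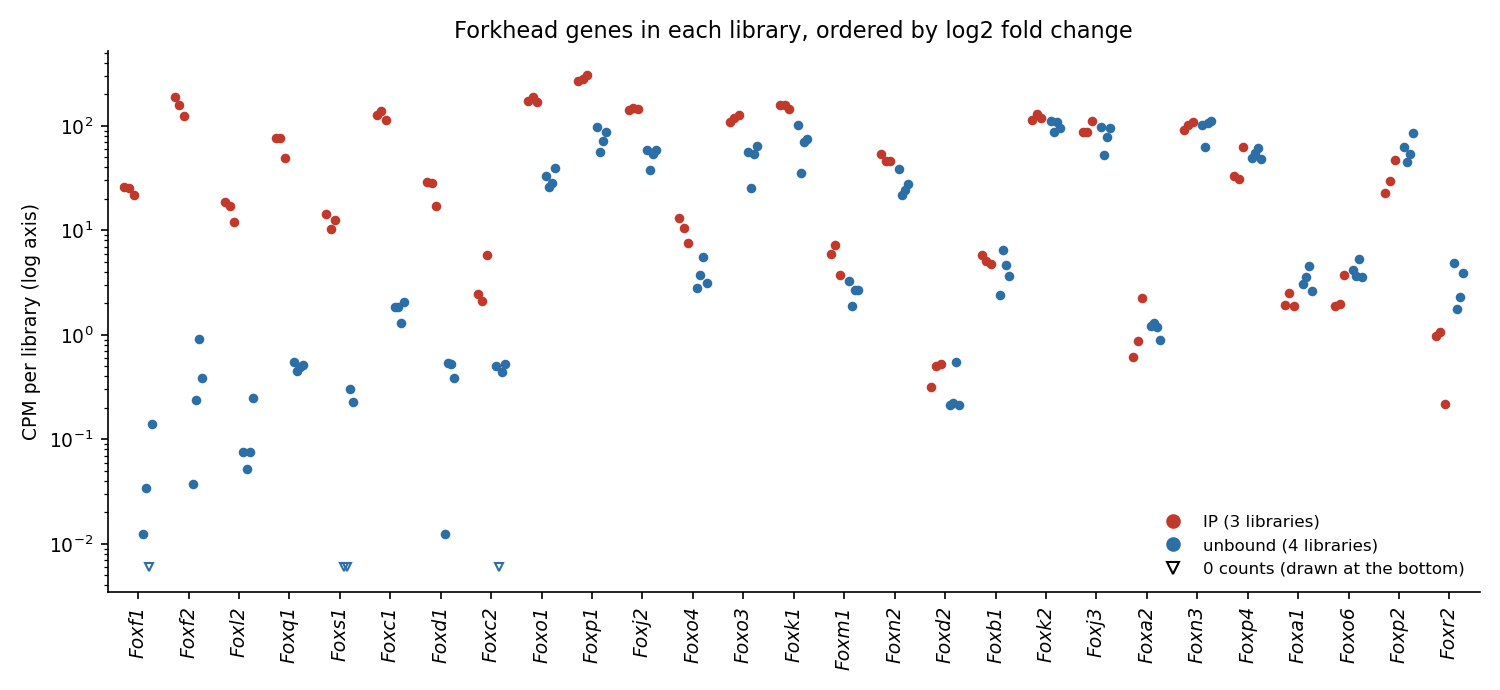
CPM of the 27 tested forkhead genes in each library on a log axis, IP in red left of unbound in blue, in order of log2 fold change. The 8 genes at the left lie at or below 2.08 CPM in every unbound library, with 0 counts drawn as open triangles at the bottom.

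**Figure D2:**
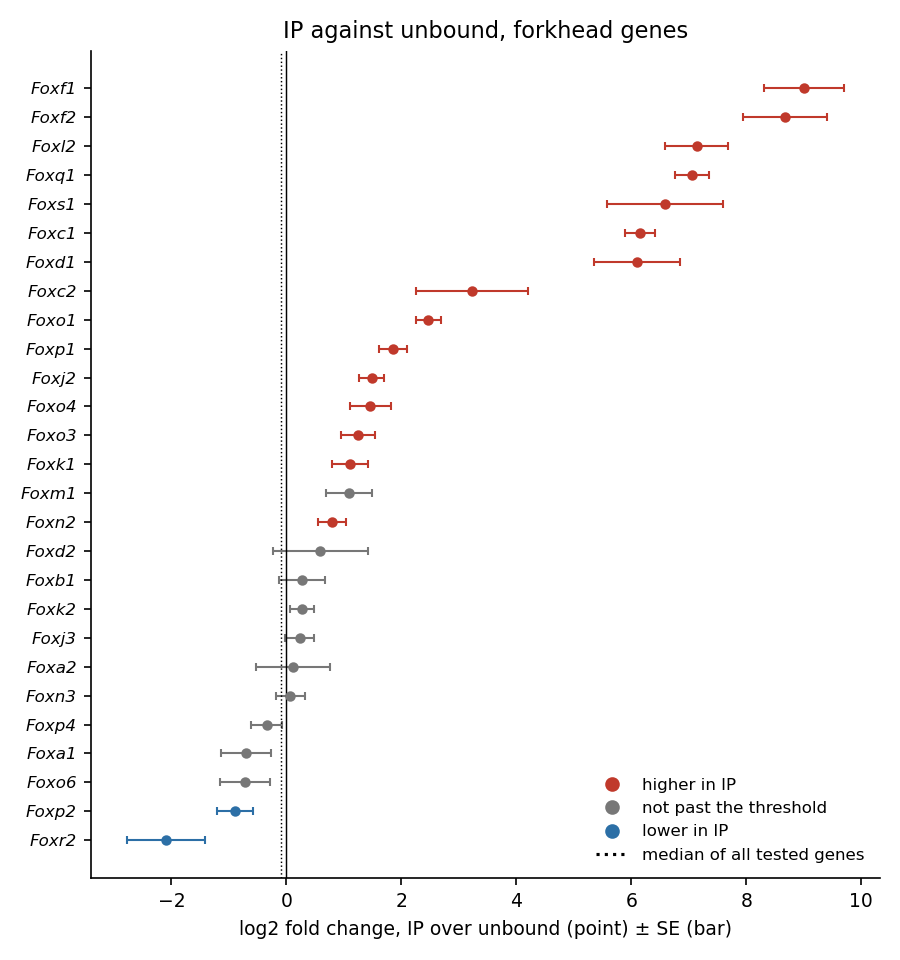
Log2 fold change of IP over unbound for the 27 tested forkhead genes, with the standard error as a bar, from 9.01 for Foxf1 to -2.09 for Foxr2. Red points are higher and blue points lower in IP past the threshold, and the dotted line is the median of all tested genes.

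Foxf1 and Foxf2, factors of mesenchyme around gut, lung and vessels, had the highest fold changes of the family. Foxf2 measured 187, 157 and 125 CPM in IP 1, 2 and 4, against 0.0376, 0.241, 0.911 and 0.388 CPM in unbound 1 to 4. Foxf1 measured 25.8, 25.5 and 22.0 CPM in IP, against 0.0125, 0.0344, 0 and 0.141 CPM in unbound libraries. No unbound library came near an IP library for either gene. Per kilobase of exon, Foxf2 averaged 66.2 ± 13.03 CPM in IP and Foxf1 10.1 ± 0.883 (SD, n = 3). The log2 fold changes were 8.68 ± 0.73 (SE, adjusted p = 9.37e-06) for Foxf2 and 9.01 ± 0.69 (adjusted p = 5.21e-06) for Foxf1. Since Foxf1 had 11 counts in all unbound libraries together, its fold change was 10.42 without unbound 4, and that of Foxf2 was 9.50 without unbound 3. Foxf2 lies on chromosome 13 from 31625816 to 31631403 and Foxf1 on chromosome 8 from 121084386 to 121088144, both on the plus strand of GRCm38 (GENCODE M21).

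Foxc1, a factor of meninges, pericytes and vessel walls, measured 127, 139 and 114 CPM in IP, against 1.83, 1.86, 1.31 and 2.08 CPM in unbound 1 to 4. The groups did not overlap, and the log2 fold change was 6.16 ± 0.26 (adjusted p = 3.61e-07). Its near relative Foxc2, known from arteries and lymphatic vessels, measured 2.45, 2.09 and 5.82 CPM in IP, against 0.501, 0, 0.437 and 0.530 CPM in unbound libraries. The highest Foxc2 value was in IP 4. Its log2 fold change of 3.23 ± 0.98 (adjusted p = 0.0233) was 2.63 without IP 4 (adjusted p = 0.0974) and 3.15 within index ACAGTG (adjusted p = 0.229), neither past the threshold. Foxc2 passed the threshold again when unbound 2, in which it had 0 counts, was left out with IP 4 (2.22, adjusted p = 0.0259).

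Foxq1, a factor of brain endothelium, measured 75.9, 76.2 and 49.6 CPM in IP, against 0.551, 0.447, 0.494 and 0.512 CPM in unbound libraries. Its unbound values were the most even of the strongly raised genes, and its log2 fold change of 7.06 ± 0.29 had an adjusted p of 3.43e-07 in edgeR's test. In GENCODE M21 66.1% of the Foxq1 exons lie over a gene on the other strand, A530084C06Rik, which had no row in the files. The strand setting of the counting is not given in the sources used here, so reads from that gene cannot be told apart from Foxq1 reads.

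Foxd1, a factor of stromal progenitors from which pericytes arise in the kidney, measured 28.9, 28.2 and 17.1 CPM in IP, against 0.0125, 0.533, 0.531 and 0.388 CPM in unbound libraries. Foxl2, best known for keeping ovarian granulosa cells in their identity, measured 18.7, 17.1 and 11.97 CPM in IP, against 0.0752, 0.0515, 0.0759 and 0.247 CPM in unbound libraries. Foxs1, a small factor known from neural crest and perivascular cells, measured 14.3, 10.3 and 12.6 CPM in IP, against 0, 0, 0.304 and 0.229 CPM in unbound libraries. In these genes, too, every IP library lay far above every unbound library. The log2 fold changes were 6.10 ± 0.74 (adjusted p = 0.00012) for Foxd1, 7.14 ± 0.55 (adjusted p = 5.53e-06) for Foxl2 and 6.58 ± 1.01 (adjusted p = 0.000567) for Foxs1. The fold change was 7.83 for Foxl2 without unbound 4 and 7.39 for Foxs1 without unbound 3, both libraries in which the unbound level was highest. Foxd1 lies on chromosome 13 from 98354242 to 98359305, Foxl2 on chromosome 9 from 98955288 to 98958543 and Foxs1 on chromosome 2 from 152931898 to 152933208. IP 4 was the lowest IP library for Foxf1, Foxf2, Foxc1, Foxq1, Foxd1 and Foxl2, as it was for Stard8 and for the summed pericyte and smooth muscle markers.

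Some of these genes lie close together in the genome. Foxq1, Foxf2 and Foxc1 sit within 256.3 kb on chromosome 13, all on the plus strand, and all 3 were higher in IP. Between Foxq1 and Foxf2 lies the long noncoding RNA gene 1700018A04Rik (31565492 to 31625792, minus strand). IP 1, 2 and 4 gave 139, 40 and 93 counts of it, and each unbound library gave 0. With 3 counts for the whole unbound group as the floor, it was at least 122-fold higher in IP. Gmds, the next protein-coding gene after Foxc1, which encodes an enzyme of GDP-fucose synthesis, had 7.74 ± 2.29 CPM in IP (SD, n = 3) and 6.33 ± 1.48 in unbound libraries (SD, n = 4). It did not pass (0.29 ± 0.34, adjusted p = 0.533). On chromosome 8, Foxf1, Foxc2 and Foxl1 sit within 46.3 kb, and there the members differed. Foxf1 and Foxc2 were higher in IP, while Foxl1, a factor of gut mesenchyme, had 0 counts in IP and 6 in unbound libraries. Fendrr, a long noncoding RNA gene next to Foxf1 on the minus strand (121054882 to 121083110), measured 4.02, 2.65 and 2.46 CPM in IP, against 0, 0.241, 0.247 and 0.247 CPM in unbound libraries. It was higher by 4.06 ± 0.97 on the log2 scale (adjusted p = 0.00739). Mthfsd, a gene that lies between Foxf1 and Foxc2, did not pass (-0.93 ± 0.39, adjusted p = 0.0787). Irf8, a factor of microglia and other myeloid cells and the next coding gene before Foxf1 with a row in the files, was higher in IP by 3.97 ± 0.43 (adjusted p = 5.27e-05). Both noncoding genes were singled out after their values were seen. A further cluster of 19.7 kb, with Foxd2 and Foxe3 on chromosome 4, held no forkhead gene that passed.

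**Figure D3:**
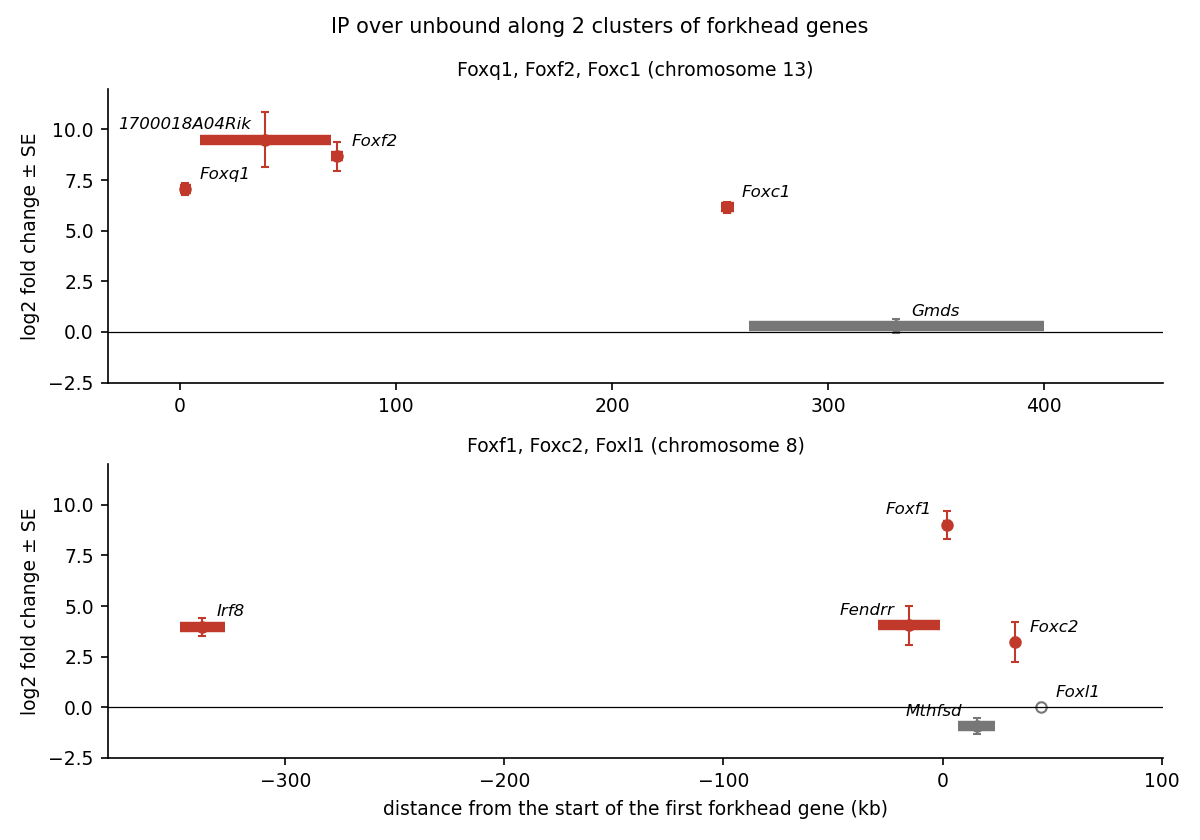
Log2 fold change of IP over unbound, with its standard error, along the clusters on chromosomes 13 and 8, against the distance in kb from the start of the first forkhead gene. Bars show the length of each gene, red is higher in IP past the threshold, and the open circle marks Foxl1, which was not tested and is drawn at 0.

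Levels were compared between genes per kilobase of exon in GENCODE M21. The annotation used for counting is not given in the sources used here, so these lengths may differ from it. In IP, Foxf2 was the highest of the family at 66.2 ± 13.03 CPM per kb (SD, n = 3), against 0.167 ± 0.158 CPM per kb in unbound libraries (SD, n = 4), where it was the 20th. Foxj2 followed in IP at 27.3 ± 0.549 CPM per kb. Foxk2, Foxc1, Foxp1, Foxo1 and Foxk1 came next, at 23.1 ± 1.53, 21.7 ± 2.14, 20.6 ± 1.36, 20.4 ± 1.15 and 20.2 ± 0.997 CPM per kb in IP, and each differed from its neighbour in this order by less than its own SD. In unbound libraries Foxk2 led at 19.1 ± 2.08 CPM per kb, then Foxp4 at 10.8 ± 1.27, Foxj2 at 9.77 ± 1.81 and Foxk1 at 9.35 ± 3.63. Foxj2 differed there from Foxp4 and from Foxk1 by less than its own SD. The 8 genes with a log2 fold change over 3, a group named after their values were seen, made up 43.7% of the family's summed level per kb in IP and 0.967% in unbound libraries. That the share is larger in IP follows from how the group was chosen.

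**Figure D4:**
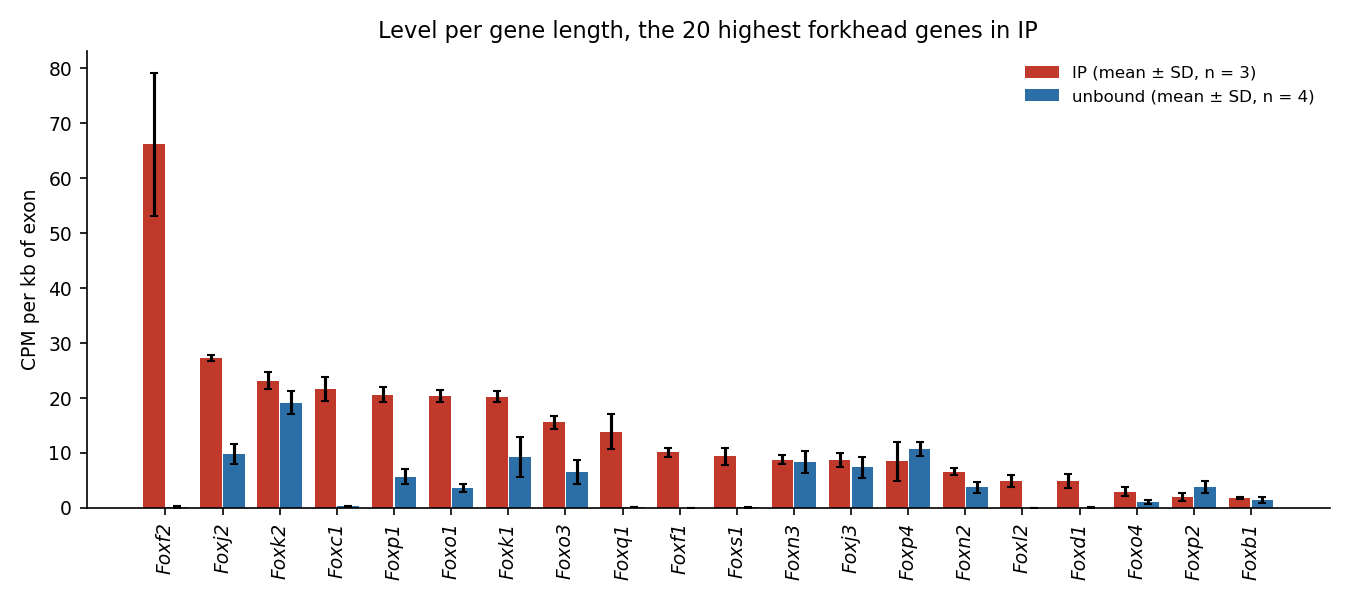
Mean CPM per kb of exon of the 20 forkhead genes with the highest level in IP, IP in red (SD, n = 3) left of unbound in blue (SD, n = 4). Foxf2 stands highest in IP at 66.2, while its unbound bar, like those of Foxc1, Foxq1, Foxf1 and Foxs1, is close to 0.

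The FoxO factors act on metabolism, stress resistance and the cell cycle, and in endothelium Foxo1 restrains growth of vessels. Foxo1 measured 174, 187 and 168 CPM in IP, against 33.2, 26.2, 28.3 and 39.8 CPM in unbound libraries. Foxo3 measured 109, 119 and 126 CPM in IP, against 56.3, 25.3, 53.7 and 63.6 CPM in unbound libraries. Foxo4 measured 13.2, 10.6 and 7.55 CPM in IP, against 2.82, 3.73, 5.54 and 3.11 CPM in unbound libraries. For these 3 genes every IP library lay above every unbound one. The log2 fold changes were 2.47 ± 0.22 for Foxo1, 1.24 ± 0.30 for Foxo3 and 1.46 ± 0.36 for Foxo4 (adjusted p = 1.45e-05, 0.00723 and 0.00864). Foxo3 did not pass within index ACAGTG (1.48, adjusted p = 0.0622). Foxo4 passed neither within index GTGAAA (0.83, adjusted p = 0.132) nor without IP 1 (1.27, adjusted p = 0.0531). Foxo6, the member of the class best known from neurons, measured 1.89, 1.95 and 3.77 CPM in IP, against 4.15, 3.63, 5.35 and 3.57 CPM in unbound libraries. Its groups overlapped through IP 4 and it did not pass (-0.72 ± 0.43, adjusted p = 0.211).

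Of 29 genes that regulate FoxO proteins, 8 were higher in IP and 5 lower, and the median log2 fold change was 0.35, against -0.10 over all genes tested. These are 27.6% and 17.2% of the list, near the 20.5% and 18.9% of all genes tested. The kinase gene Akt2 had the smallest p, with 108, 98.8 and 91.1 CPM in IP against 49.1, 47.9, 35.5 and 38.5 CPM in unbound libraries (1.22 ± 0.21, adjusted p = 0.00126). The receptor Igf1r (1.04), the kinase genes Akt1 (0.61) and Sgk3 (1.38) and the PI3-kinase subunits Pik3r1 (0.99) and Pik3r2 (0.79) were also higher, as log2 fold changes. So were Crebbp (0.77), an acetyltransferase, and Stk4 (0.88), a kinase of FoxO. Among the 14-3-3 genes, whose proteins hold phosphorylated FoxO in the cytoplasm, Ywhag (-1.43 ± 0.31, adjusted p = 0.00415), Ywhah (-1.25) and Ywhab (-0.65) were lower. Ywhae, with the highest mean CPM of the list over all libraries, had 2187 ± 59.5 CPM in IP and 2137 ± 185 in unbound libraries (0.03 ± 0.24, adjusted p = 0.926). The kinase genes Sgk1 (-0.80) and Mapk8 (-0.93) were lower too. In the libraries of index ACAGTG alone, 2 of 29 were higher and 2 lower, against 2190 and 1650 of 17663 genes. Without IP 2 the counts were 4 and 2, against 2796 and 1751 of 18413 genes. Without IP 1 they were 5 and 2, against 2915 and 1899 of 18255 genes. Without unbound 1, 3 or 4, 3 of the list were lower, against 3087, 2634 and 2770 of all genes.

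Of 32 genes described as FoxO targets, 29 were tested, 13 were higher and 3 lower in IP, and the median log2 fold change was 0.83. As shares of the tested targets these are 44.8% and 10.3%, against 20.5% and 18.9% of all genes tested. Txnip, an inhibitor of thioredoxin and of glucose uptake, measured 190, 128 and 123 CPM in IP against 7.43, 6.39, 5.12 and 7.06 CPM in unbound libraries (4.50 ± 0.26, adjusted p = 1.39e-06). Klf2 (7.20) and Klf4 (6.17), factors of endothelium, had the highest log2 fold changes of the list, and after Txnip came Cdkn1a (3.07), an inhibitor of the cell cycle, and Nos3 (2.75), the endothelial nitric oxide synthase. Sesn1 (2.38), Bcl2l11 (2.30), Trib1 (2.04), Klf6 (1.71), Cat (1.23), Bcl6 (1.10), Atg14 (0.92) and Cited2 (0.83) were higher as well. The antioxidant enzyme Sod2 was lower (-1.24 ± 0.31, adjusted p = 0.00955), as were Bnip3 (-0.70) and the autophagy gene Gabarapl1, with the highest mean CPM of the list over all libraries. Gabarapl1 had 578, 470 and 361 CPM in IP against 1085, 1420, 780 and 771 CPM in unbound libraries (-1.11 ± 0.31, adjusted p = 0.0148). Without IP 2, 0 of the list were lower, against 1751 of 18413 genes. Insr and Irs2 stand in both FoxO lists, and neither passed.

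In the list of the brain vessel barrier, 25 of 28 genes were higher in IP and 1 was lower, with a median log2 fold change of 3.83. The shares are 89.3% and 3.57%, against 20.5% and 18.9% of all genes tested. Sox17 and Notum passed the filter on low counts only with their IP libraries, so their place among the tested genes was tied to their level in IP. Sox18, an endothelial factor, measured 399, 382 and 223 CPM in IP against 2.12, 1.70, 1.27 and 1.41 CPM in unbound libraries (7.68 ± 0.35, adjusted p = 4.42e-07). Slc2a1, the barrier's glucose transporter, averaged 982 ± 250 CPM in IP (SD, n = 3) and 42.8 ± 9.26 in unbound libraries (SD, n = 4). Genes of the Wnt pathway, which induces the barrier, were among those higher, with log2 fold changes of 5.87 for Tcf7, 5.50 for Apcdd1, 3.98 for the receptor Fzd4, 2.52 for Nkd1, 1.89 for Lef1 and 1.73 for Axin2. Plvap, a protein of the pores of leaky vessels, was lower, with 5.82, 3.68 and 3.89 CPM in IP against 14.9, 26.6, 9.21 and 6.57 CPM in unbound libraries (-1.68 ± 0.48, adjusted p = 0.0172). Without IP 2 or without IP 4, 0 of the list were lower. Ctnnb1 and Lrp6 did not pass (0.56 and 0.81).

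**Figure D5:**
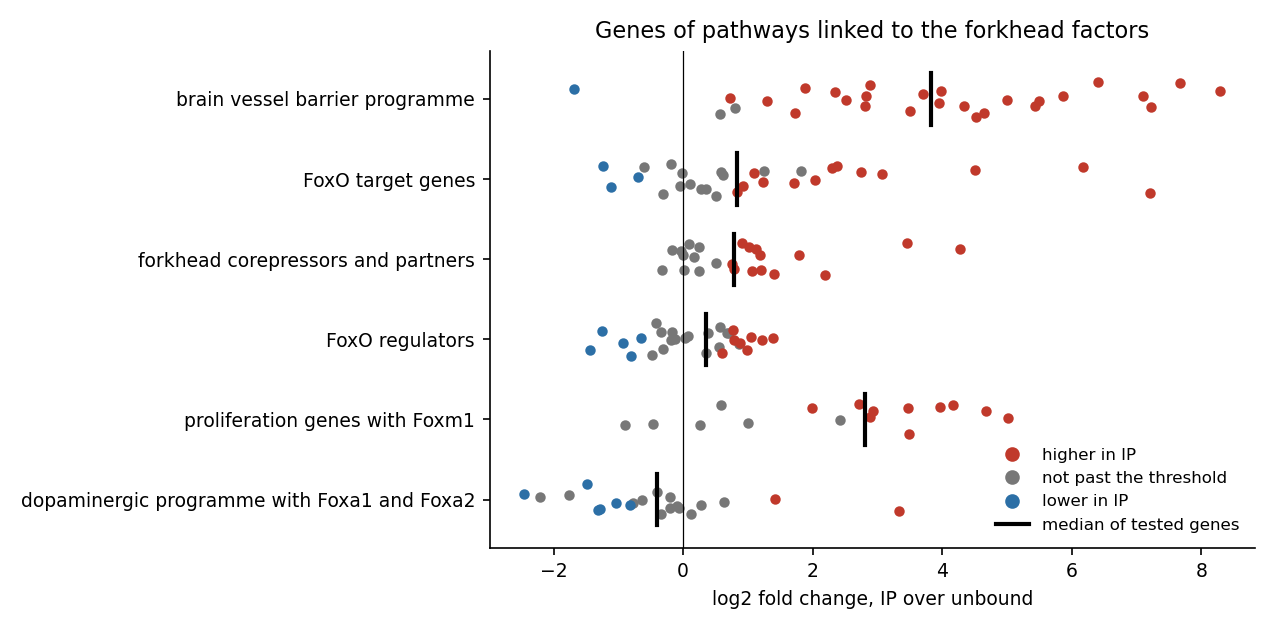
Log2 fold change of IP over unbound for each tested gene of 6 lists linked to the forkhead factors, with the median as a black bar. Red is higher and blue lower in IP past the threshold. The median of the barrier list is 3.83 and that of the dopaminergic list is -0.40.

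Foxp1, Foxj2, Foxk1 and Foxn2 were also higher in IP. Foxp1, a repressor found in many tissues, had the highest CPM of the family in IP before division by length, at 268, 279 and 304 CPM against 98.2, 55.6, 72.0 and 87.1 CPM in unbound libraries (1.86 ± 0.24, adjusted p = 2e-04). Foxj2 measured 143, 149 and 146 CPM in IP against 58.3, 38, 54.2 and 58.5 CPM in unbound libraries (1.48 ± 0.22, adjusted p = 0.000453). Foxk1, which recruits Sin3 repressor complexes and curbs autophagy, measured 157, 159 and 145 CPM in IP against 103, 35.6, 70.1 and 75.4 CPM in unbound libraries. All 3 kept their groups apart, as did Foxn2. Foxk1 rose by 1.11 ± 0.31 (adjusted p = 0.016), but did not pass without IP 2 (1.10, adjusted p = 0.0542) or within index ACAGTG (1.19, adjusted p = 0.153). Foxn2 rose by 0.79 ± 0.25 (adjusted p = 0.0254), with 53.8, 46.1 and 45.9 CPM in IP and 38.4, 21.7, 24.2 and 28.0 CPM in unbound libraries. It did not pass without IP 1, IP 2, unbound 3 or unbound 4 (adjusted p = 0.095, 0.066, 0.0748 and 0.0555), nor within index ACAGTG (adjusted p = 0.206).

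Foxk2, Foxj3 and Foxn3, relatives of the genes above, did not pass. Foxk2 had 122 ± 8.08 CPM in IP (SD, n = 3) and 100.5 ± 10.95 in unbound libraries (SD, n = 4), a log2 fold change of 0.27 ± 0.20 (adjusted p = 0.306), although every IP library was above every unbound one. Foxj3 had 0.23 ± 0.26 (adjusted p = 0.505) and Foxn3 0.07 ± 0.25 (adjusted p = 0.843), with 95.4 ± 14.1 and 101 ± 9.66 CPM in IP and 81.3 ± 21.1 and 95.9 ± 22.8 CPM in unbound libraries. The difference between paralogs was not tested. Unbound 2 was the lowest unbound library for Foxj2, Foxj3, Foxk1, Foxk2, Foxn2, Foxn3, Foxo1, Foxo3 and Foxp1.

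Among 23 corepressors and partners of forkhead factors, 13 were higher in IP and 0 lower, with a median log2 fold change of 0.78. The higher ones are 56.5% of the list, against 20.5% of all genes tested. DESeq2 gave 13 and 0. Runx1, a factor of blood and endothelium, measured 38.6, 33.9 and 34.0 CPM in IP against 1.32, 1.32, 1.86 and 2.82 CPM in unbound libraries (4.28 ± 0.33, adjusted p = 5.82e-06). Nfatc1 (3.46), Smad3 (2.20), the deacetylase Hdac1 (1.79), Tle1 (1.41), Tle3 (1.20), Ctbp2 (1.18) and Sin3a (1.13) were also higher as log2 fold changes. Ncor1, the corepressor with the highest mean CPM of the list, had 301, 347 and 351 CPM in IP against 173, 160, 199 and 243 CPM in unbound libraries (0.78 ± 0.23, adjusted p = 0.0202). In index ACAGTG alone, 7 of the list were higher, against 2190 of 17663 genes.

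Foxp2 and Foxr2 were the 2 forkhead genes that were lower in IP. Foxp2, known for its part in speech and in motor circuits, measured 22.8, 29.4 and 47.2 CPM in IP, against 63.2, 44.7, 53.6 and 85.6 CPM in unbound libraries. The groups overlapped through IP 4, and the log2 fold change was -0.90 ± 0.31 (adjusted p = 0.0412). Foxp2 did not pass without IP 1, IP 2, unbound 1, unbound 3 or unbound 4 (adjusted p = 0.17, 0.149, 0.0679, 0.0579 and 0.109), nor within either index (adjusted p = 0.0735 and 0.128), nor with library size alone (adjusted p = 0.0616). Foxp4 measured 32.9, 30.7 and 62.1 CPM in IP, against 48.7, 54.8, 61.4 and 48.0 CPM in unbound libraries (-0.35 ± 0.28, adjusted p = 0.35). Without IP 4 it passed as lower, at -0.74 (adjusted p = 0.0413). Foxr2, whose product is known as an activator in brain tumours, measured 0.974, 1.06 and 0.216 CPM in IP, against 4.89, 1.77, 2.32 and 3.87 CPM in unbound libraries. Every IP library lay below every unbound one, and the log2 fold change was -2.09 ± 0.68 (adjusted p = 0.0312). It did not pass without IP 1, IP 2, IP 4, unbound 1 or unbound 4 (adjusted p = 0.0667, 0.0594, 0.0675, 0.0578 and 0.0722), nor within index ACAGTG (adjusted p = 0.176).

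Foxa1 measured 1.92, 2.53 and 1.89 CPM in IP, against 3.03, 3.56, 4.54 and 2.63 CPM in unbound libraries, and, although the groups did not overlap, did not pass (-0.70 ± 0.43, adjusted p = 0.22). Foxa2 measured 0.614, 0.871 and 2.24 CPM in IP, against 1.22, 1.31, 1.18 and 0.883 CPM in unbound libraries (0.11 ± 0.65, adjusted p = 0.907). IP 4 alone was above the unbound libraries, and without it the value was -0.62 (adjusted p = 0.533). Of 22 genes of the dopaminergic programme in which Foxa1 and Foxa2 act, 21 were tested, 2 were higher and 6 lower in IP, with a median log2 fold change of -0.40. These are 9.52% and 28.6% of the list, against 20.5% and 18.9% of all genes tested. Gfra1, a receptor for the growth factor GDNF, had 15.1, 14.2 and 17.4 CPM in IP against 56.4, 36.7, 38.9 and 42.8 CPM in unbound libraries (-1.49 ± 0.24, adjusted p = 0.000809). Shh (-2.45), Calb1 (-1.32), Kcnj6 (-1.28), En2 (-1.04) and Slc6a3 (-0.82) were lower too. Aldh1a1, which makes retinoic acid and had the highest mean CPM of the list, was higher by 1.42 ± 0.33 (adjusted p = 0.00681), and Msx1 by 3.34 ± 0.84 (adjusted p = 0.00953). The lower count was 3 without IP 2, against 1751 of 18413 genes.

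Foxb1, a factor of the mammillary bodies and thalamus, had 5.21 ± 0.534 CPM in IP (SD, n = 3) and 4.30 ± 1.72 in unbound libraries (SD, n = 4), with overlapping groups (0.28 ± 0.40, adjusted p = 0.617). Among tested forkhead genes, IP 4 was over 1.5 times the mean of IP 1 and 2 in 5. These were Foxa2, Foxc2, Foxo6, Foxp2 and Foxp4. In 5 others, Foxd1, Foxm1, Foxo4, Foxq1 and Foxr2, IP 4 was at most 0.653 times that mean. Foxr2, although lower in IP like Foxp2, had the smallest of these ratios, at 0.212. The summed markers of neurons, oligodendrocytes, oligodendrocyte precursors, astrocytes, ependyma and fibroblasts were highest in IP 4 among the IP libraries. Their part in these values was not tested. Foxd2 had 0.452 ± 0.115 CPM in IP and 0.300 ± 0.167 in unbound libraries and did not pass (adjusted p = 0.604).

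Foxm1, the factor that drives genes of the G2 and M phases, measured 5.95, 7.25 and 3.72 CPM in IP, against 3.31, 1.91, 2.70 and 2.67 CPM in unbound libraries. Every IP library was above every unbound one, but the log2 fold change of 1.09 ± 0.40 missed the threshold with an adjusted p of 0.0501 in edgeR's test. It passed with RLE scaling (adjusted p = 0.0499), library size alone (0.0461), DESeq2 (0.0193) and limma voom (0.046), and also without IP 4 (0.0338) or unbound 1 (0.0342). Of 16 proliferation genes 10 were higher in IP and 0 lower, with a median log2 fold change of 2.80, and DESeq2 gave 10 and 0. The higher ones are 62.5% of the list, against 20.5% of all genes tested. Ccnb1 passed the filter on low counts through its IP libraries alone, and Aurkb, Bub1, Cdk1 and Top2a only with theirs. The place of these genes among the tested ones was thus tied to their level in IP. With no filter 9 of 16 were higher, against 3618 of 23466 genes. Mki67 measured 5.80, 11.5 and 11.1 CPM in IP against 0.677, 0.120, 1.35 and 1.24 CPM in unbound libraries. Cenpf had the smallest p (3.97 ± 0.55, adjusted p = 0.000289), and Top2a was higher by 5.02. Without IP 1 the count of higher proliferation genes was 6, against 2915 of 18255 genes. Within index ACAGTG it was 4, against 2190 of 17663 genes. Every member of the list averaged under 10 CPM in both groups.

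The 15 forkhead genes under the filter had between 1 and 44 counts over all 7 libraries, and none passed when all 42 were tested. Foxa3, Foxi2, Foxl1, Foxn1 and Foxr1 had 0 counts in IP, and Foxe3 and Foxi1 had 0 in unbound libraries. A count of 0 over a whole group allowed up to 0.0164 CPM in IP and 0.0121 CPM in unbound libraries. All 7 counts of Foxi1 came from IP 4. Foxb2 had 16 counts in IP and 26 in unbound libraries, Foxh1 7 and 5, Foxe1 4 and 8, Foxi3 2 and 1, and Foxn4 1 and 10. Foxd3 had 2 and 10 counts, and Foxd4, with 2 and 37, stood at 0.073 times its unbound level in IP (95% exact interval for counting, 0.00852 to 0.283), but 29 of its unbound counts came from unbound 3, and without that library the value was 0.266 (0.0275 to 1.33). Foxp3, the factor of regulatory T cells, had 2 counts in IP and 42 in unbound libraries, of which 40 came from unbound 2. Its exons overlap those of Ccdc22, Ppp1r3f and Flicr in GENCODE M21. In unbound 2 the T cell markers Cd3d, Cd8a, Ctla4 and Il2ra had 0 counts, Cd3e and Cd3g had 1 each, Cd4 had 68 and Icos had 7. Icos had 0 counts in the other unbound libraries, Cd4 had 17, 50 and 52 in unbound 1, 3 and 4, and the part of these markers in the Foxp3 value was not tested. Of 3 tested T cell markers 2 were higher in IP, and the summed level of all 8 was 86.5 to 114 CPM in IP and 0.351 to 2.37 CPM in unbound libraries. The receptor gene Il2ra made up 81.7, 107 and 87.3 CPM of the sums in IP 1, 2 and 4, where Foxp3 had 0.0267, 0 and 0 CPM.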

How the data were processed

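RNA of 3 IP and 4 unbound libraries of mouse midbrain was measured. The deposited values were whole-number counts per gene symbol. The submitters' processing notes name STAR 2.0.0e, HTSeq and the build mm10. The annotation, the strand setting and any filter on reads were not given in the sources used here. Of all reads, those matching more than 1 gene took 1.43% to 1.63% in IP and 7.26% to 11.5% in unbound files, and reads aligned to more than 1 place took 33.1% to 39.6% and 17.6% to 34.6%. Both were missing from gene rows, which can lower genes that overlap or resemble others. The 6 rows that name no gene were left out.

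The fits used edgeR 4.0.16 under R 4.3.3, with filterByExpr (here 0.177 CPM in 3 libraries), TMM scaling and the robust quasi-likelihood test of IP against unbound, 2-sided, with Benjamini-Hochberg adjustment over 17654 genes at 0.05. From these counts, CPM values and log2 fold changes were derived, the SE of a log2 fold change being its size over the square root of F. Exon lengths and coordinates came from GENCODE M21 on GRCm38, the build named mm10, which held 88.4% of the tested symbols. Every forkhead gene counted here was named. Some genes of the family and of the lists stayed in the fits but are not reported here and enter no count of members. From each pathway list the smallest p, the gene with the highest mean CPM over all libraries and the largest call against the majority were named, and further called members are listed beside them, chosen after their values were seen. Members and lists were chosen with earlier results of these data known. No pair of libraries of a group agreed within sampling noise (chi-square per degree of freedom at least 77.7). Alternatives were RLE scaling, library size alone, no filter, 5 CPM in 3 libraries, DESeq2 1.42.0, limma voom 3.58.1, a replicate block, a term for the index, fits within each index and leaving out each library. Leaving out IP 4 and unbound 2 together was added after seeing the data. Intervals and floors of 3 counts cover counting error only.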

Additional observations from a re-analysis of the deposited data

Results flagged for a closer look

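In 4 of 32 forkhead genes with at least 10 unbound counts, the highest unbound library lay far from the other 3 by Dixon's test at the 95% level. For normally distributed values that level would flag about 1 gene in 20. The 4 flagged values rest on low counts and were not put on a log scale, so that rate need not hold. The share flagged over all genes was not measured. Foxp3 had 0.687 CPM in unbound 2 (40 counts), with the next library at 0.019 CPM. Foxd4 and Foxd2 each had 0.550 CPM in unbound 3 (29 counts each), with the next libraries at 0.0706 and 0.223 CPM. Foxl2 had 0.247 CPM in unbound 4 (14 counts), with the next library at 0.0759 CPM.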

How the results depend on the processing

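Of the forkhead fold changes under other settings, 433 kept direction and side of the threshold, 28 no longer passed, 9 passed newly and 9 turned sign. With at least 5 CPM in 3 libraries, fewer genes were tested. There 1 of 20 forkhead genes was lower, 1 of 16 dopaminergic genes was higher and 2 of 2 proliferation genes were higher. Those 2, Mki67 and Cenpf, passed this filter through their IP libraries alone, so that they were higher followed from it. With library size alone, which moved the median of all genes by 0.103 (log2), 1 forkhead gene was lower. Within index ACAGTG, 2190 genes were higher and 1650 lower, 0 forkhead genes were lower, 2 FoxO regulators were higher and 2 lower, 1 FoxO target was lower, 1 dopaminergic gene was higher, 4 proliferation genes were higher and 7 corepressors were higher. Within index GTGAAA, 1 forkhead gene, 3 FoxO regulators and 0 barrier genes were lower. Without IP 4 and unbound 2 together, chosen after seeing the data, 8 FoxO regulators and 0 barrier genes were lower. The cause was not tested.

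Replicate numbers were not shown to pair the libraries: deviations of same-numbered libraries correlated at -0.068, 0.065 and 0.264, and not every library correlated best with its own number. With the replicate block 14 of 27 forkhead genes were higher and 1 was lower, and 5 of 29 FoxO regulators were higher. Over all 17654 genes tested there, 3154 were higher and 2618 lower. Foxn2 (adjusted p = 0.07) and Foxr2 (0.0525) did not pass with the block.

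Leaving out each library gave 13 to 16 forkhead genes higher and 0 to 2 lower, and 2796 to 4050 of all genes higher and 1751 to 3632 lower, with 1899 lower without IP 1 and 1751 without IP 2. It gave 4 to 9 FoxO regulators higher and 2 to 5 lower, 0 to 3 FoxO targets lower, 0 to 1 barrier genes lower, 2 to 3 dopaminergic genes higher and 3 to 8 lower, and 6 to 9 proliferation genes higher. Fold changes of genes that did not pass turned sign for Foxa2 with limma voom (-0.18), the block (-0.10), within index ACAGTG (-0.76), without IP 4 (-0.62) and without IP 4 and unbound 2 (-0.55). The same held for Foxj3 without both (-0.053), Foxn3 without unbound 2 (-0.09) or without both (-0.14) and Foxp4 within index GTGAAA (0.20). Over the libraries left out, the highest values were 0.46 for Foxa2 and 0.16 for Foxn3. Unbound counts of 11 to 87 limit the fold changes of Foxf1, Foxl2, Foxs1, Foxd1 and Foxf2.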
